A study of Mus musculus with 7 samples.

Results

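The endothelial identity genes examined here are 48 mouse genes that mark the lining cells of blood vessels, lymphatic vessels and the inner surface of the heart, taken by name from a table of 56980 genes. All 48 were in the table and were above 0 in at least 1 heart. RNA was sequenced from myocardial tissue of 7 wild-type (WT) male C57BL/6J mice, an inbred strain, that were 8 weeks old when received. In 3 mice the left coronary artery had been ligated (myocardial infarction, MI), and 4 mice had the operation without ligation (sham). Hearts were collected 4 days after surgery, and each mouse gave 1 library. The material was whole tissue, which the study's text calls ischemic in the MI mice, and the labels give no region of the heart.

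Endothelial cells form the inner layer of every vessel and are held together by junction proteins such as VE-cadherin and claudin 5. Their identity is kept by transcription factors of the ETS, SoxF and KLF families, and arteries, veins, capillaries, lymphatics and the endocardium each add genes of their own. When blood flow stops or tissue is inflamed, endothelial cells can display adhesion molecules that catch leukocytes, form openings in the vessel wall, or sprout behind a leading tip cell. In bulk tissue, more cells of a type and more RNA per cell cannot be told apart.

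Values are FPKM, the fragments counted on a gene relative to its length and to the fragments of the library. Depth was inferred from the steps between values, at 19977713 to 23610870 fragments per heart. MI replicate 2 stood apart from the other MI hearts, although its label gives the same ligation. Across all genes tested its log2 values correlated with those of the sham hearts at r = 0.984 to 0.987. MI replicate 1 reached only 0.878 to 0.881 and MI replicate 3 only 0.903 to 0.906. From this depth and annotated gene lengths, mitochondrial genes were estimated to hold 26.5% to 27.4% of fragments in sham hearts. The estimates were 28.2% in MI replicate 2, and 13.6% and 14.9% in MI replicates 1 and 3. The cardiomyocyte markers identified the tissue as heart muscle, with a summed FPKM of 15766 to 17202 in sham hearts, 10470 and 11399 in MI replicates 1 and 3, and 15624 in MI replicate 2. Not every measure of this heart was inside the sham range. Its fibroblast markers summed to 286 FPKM, against at most 190 in sham hearts, and its mesothelium and epicardium markers to 18.9, against at most 8.71. Why this heart resembled the sham hearts in most measures was not tested, and whether it was infarcted like the others is in doubt. So every mean and fold change over 3 MI hearts averages unlike hearts. Results are therefore given with and without MI replicate 2, and fits without it rest on a choice made with its values known. Changes on the log2(FPKM + 1) scale are also given relative to the median gene tested, which was 0.21 higher in MI.

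Plvap, Pdpn, Vcam1, Icam1 and Gja4 had at least 2 times the sham mean in MI, each mainly in MI replicates 1 and 3, while Aqp1, Rgcc and Prox1 were lower. The 5 genes were 11.4% of the 44 endothelial genes tested, and 11.5% of all 11431 genes passed the same fold. Of 2 classical identity markers, Cdh5 was close to its sham level, at 1.05 times the sham mean, and Pecam1 was at 1.39 times. Of the 44 endothelial genes tested, 0 passed an adjusted p of 0.05 in limma, beside 0.0175% of all genes higher and 0.00875% lower. At an unadjusted p under 0.05, 15 were higher, 34.1% of those tested beside 29.5% of all genes, and 3 were lower, 6.82% beside 9.85%. The median change of the endothelial genes was 0.12 above that of all genes on the log2 scale. Against the mean of the sham hearts, this difference in medians was 0.023 in MI replicate 1, 0.015 in MI replicate 2 and 0.24 in MI replicate 3. The value of 0.12 became 0.043 without MI replicate 3, 0.077 without sham replicate 1 and 0.27 without the filter on low genes.

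The counts at an unadjusted p depended on single hearts and on scaling. The 15 higher became 7 without MI replicate 1, 31 without MI replicate 2 and 4 without MI replicate 3, while the share of all genes went from 29.5% to 9.18%, 58.8% and 8.33%. The 3 lower became 1 without MI replicate 3, beside 4.68% of all genes, and also 1 without each sham replicate in turn, beside 6.32% to 7.32%. Quantile normalization gave 8 higher and 5 lower, beside 16.7% and 21.0% of all genes, and rescaling to equal totals (TPM) gave 19 higher and 1 lower, beside 36.2% and 4.90%. The 3 lower became 2 without MI replicate 1, beside 4.93% of all genes, and stayed at 3 without MI replicate 2, beside 15.5%. Without MI replicate 2, 31 of 44 passed an adjusted p of 0.05 as higher and 3 as lower, where 57.0% of all genes were higher and 14.7% lower.

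Separation of the 2 groups was less common. In 7 of the 44 tested genes every MI heart was above every sham heart (Adgrl4, Vwf, Ramp2, Calcrl, Fabp4, Plvap and Pdpn), beside 16.1% of all genes. In 2 of them, Rgcc and Prox1, every MI heart was below, beside 9.0% of all genes. MI replicates 1 and 3 lay above every sham heart in 31 genes, 70.5% of the 44 beside 61.9% of all genes, and below in 3, beside 16.9%. The shares of higher genes were near those of all genes, and no test was made over the list.

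**Figure D1:**
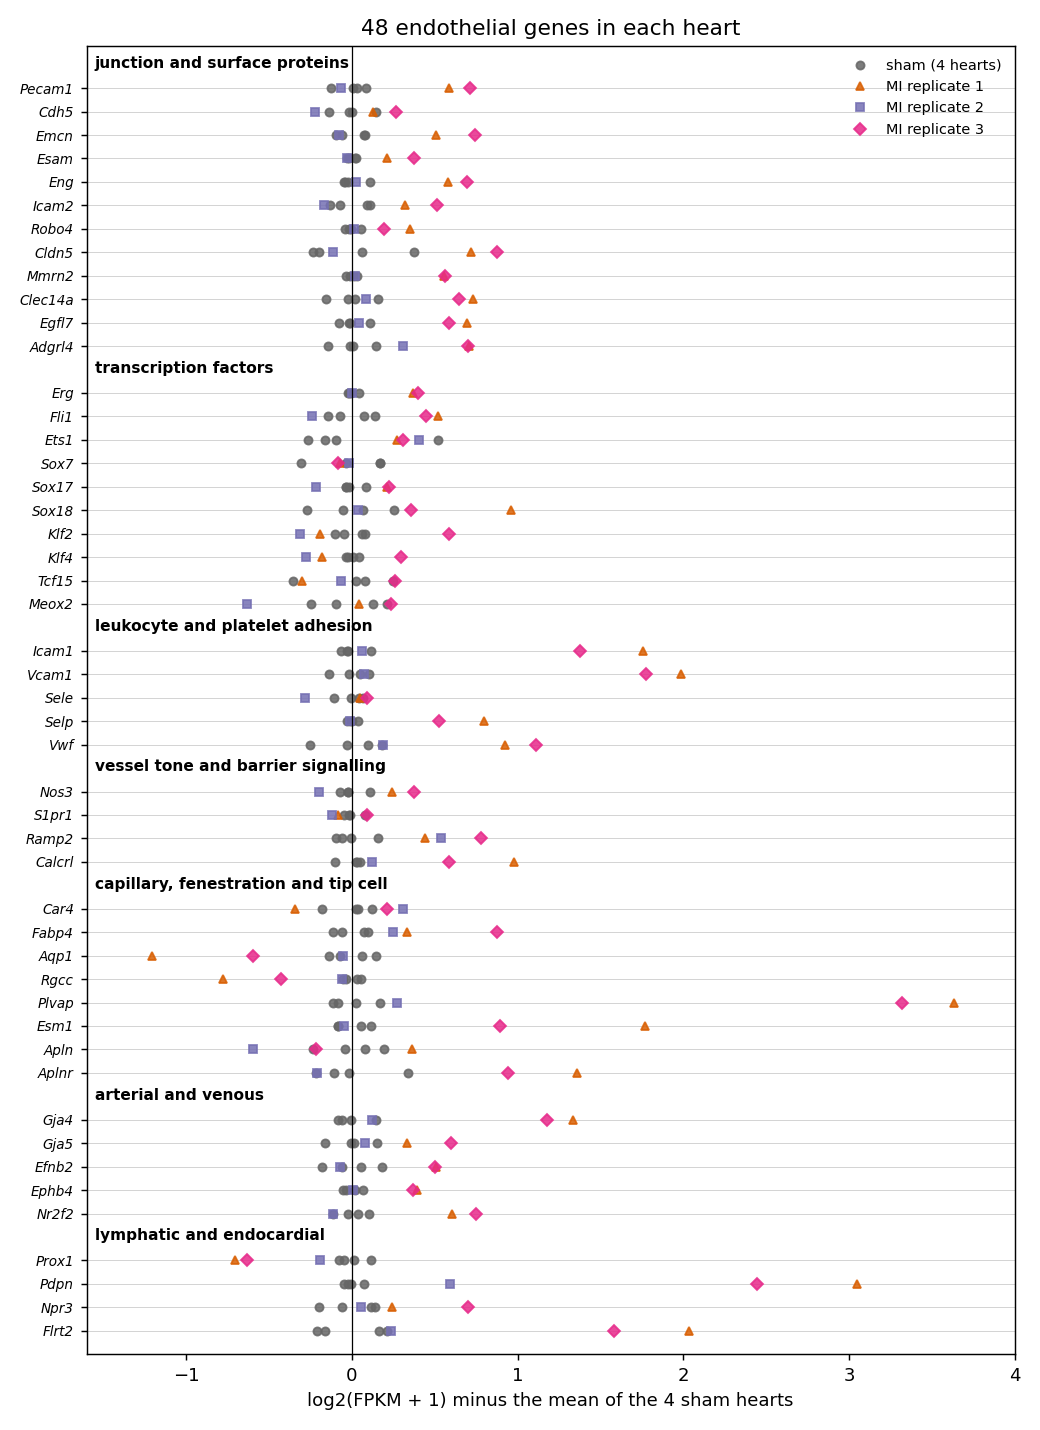
Each row is 1 of the 48 endothelial genes, grouped by role, and the horizontal axis is log2(FPKM + 1) minus the mean of the 4 sham hearts, with grey circles for sham hearts and coloured symbols for the 3 MI hearts. MI replicates 1 and 3 lay to the right of every sham heart in 31 of the 44 genes tested, or 70.5% beside 61.9% of all genes, while MI replicate 2 stayed within or near the sham points in most rows.

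**Figure D2:**
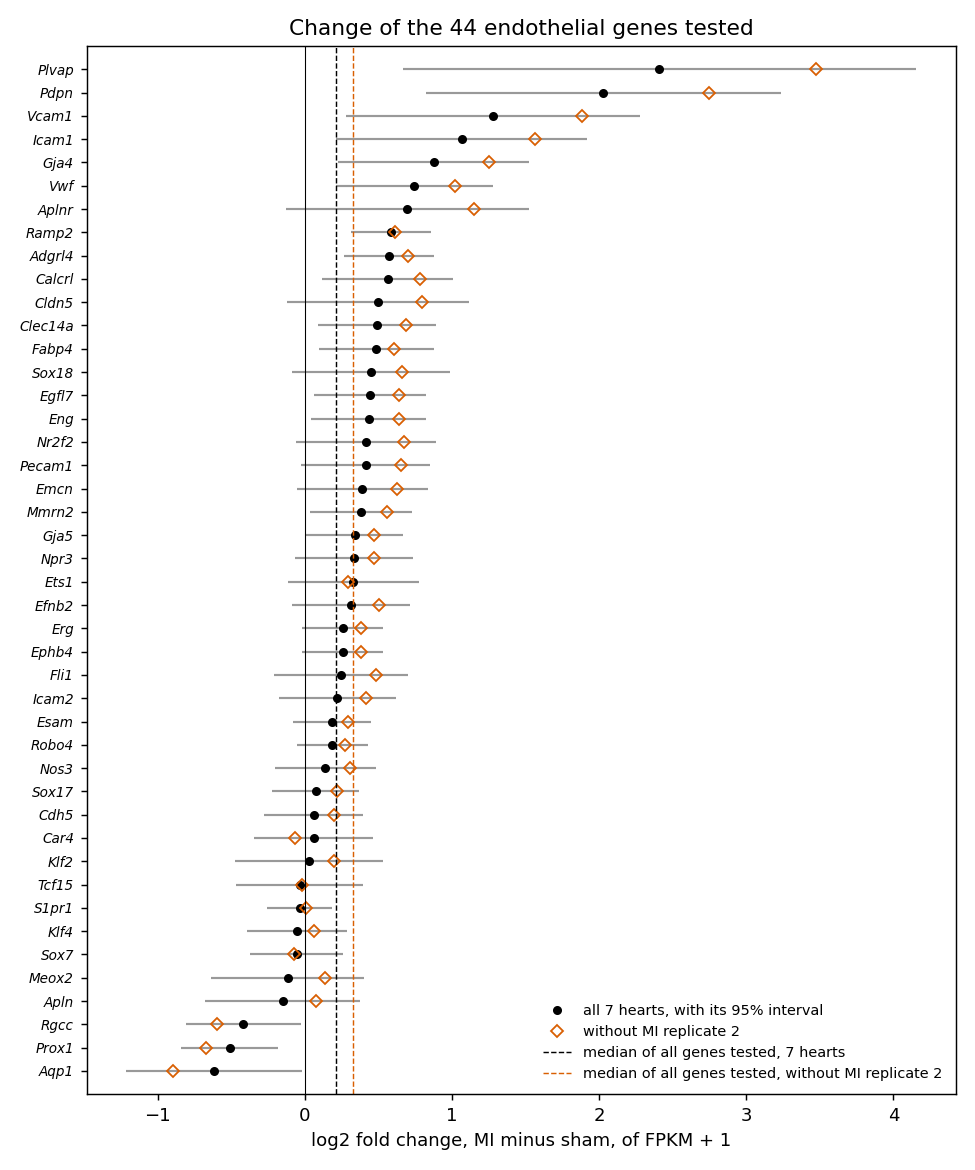
Log2 fold changes (MI minus sham, of FPKM + 1) of the 44 endothelial genes tested, as black points with 95% intervals from all 7 hearts and open diamonds without MI replicate 2, with dashed lines at the median of all genes. Plvap, at 2.41, and Pdpn, at 2.03, stood furthest right, and Aqp1, Prox1 and Rgcc were at the lower end.

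The 12 junction and surface proteins had modest changes. All 12 were tested, 5 were higher at an unadjusted p under 0.05 (Eng, Mmrn2, Clec14a, Egfl7 and Adgrl4) and 0 were lower, beside 29.5% and 9.85% of all genes. Their median change was 0.19 above that of all genes. All but Cdh5, 11 of the 12, were higher at an adjusted p under 0.05 without MI replicate 2, where 57.0% of all genes were. The summed FPKM of the group was 174.7 to 198.6 in sham hearts, 249.3 and 266.6 in MI replicates 1 and 3, and 174.8 in MI replicate 2.

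Pecam1 (CD31, an adhesion protein of endothelial cells, platelets and leukocytes; chr11:106654217-106750628 on GRCm38, minus strand) had 16.2, 13.9, 15.3 and 15.6 FPKM in sham replicates 1 to 4 and 23.5, 14.6 and 25.7 in MI replicates 1 to 3. All later lists of values follow this order of replicates. MI replicate 2 lay inside the sham range and the other MI hearts above it. This gave a log2 fold change of 0.41 (SE 0.19, limma adjusted p = 0.139), and of 0.65 without MI replicate 2 (adjusted p = 0.000277).

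Cdh5 (VE-cadherin, the adherens junction protein of endothelium; chr8:104101625-104144511, plus strand) had 69.6, 62.9, 62.1 and 57.1 FPKM in sham hearts and 68.8, 53.7 and 75.8 in MI hearts. The groups overlapped, with MI replicate 2 the lowest heart of all and MI replicate 3 the highest. Its log2 fold change was 0.06 with a 95% interval of -0.27 to 0.39 (adjusted p = 0.753), and it stayed short of the threshold without MI replicate 2 (0.20, adjusted p = 0.0777).

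Adgrl4 (ELTD1, an adhesion G protein-coupled receptor of vessels) was the member of this group with the largest change relative to the median gene. Sham hearts had 8.83, 7.85, 7.97 and 7.05 FPKM and MI hearts 13.5, 10.04 and 13.4, so the groups did not overlap. Its log2 fold change was 0.57 (SE 0.13, adjusted p = 0.108), and 0.70 (adjusted p = 0.000304) without MI replicate 2. Cldn5, which encodes the tight junction protein claudin 5, had 16.0, 12.7, 10.1 and 10.4 FPKM in sham hearts and 20.6, 11.1 and 23.1 in MI hearts. Here the sham hearts themselves spread widely and MI replicate 2 was among the lower of them. The log2 fold change of Cldn5 was 0.49 (SE 0.26, adjusted p = 0.182), and 0.80 (SE 0.17, adjusted p = 0.00509) without MI replicate 2.

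Clec14a, a C-type lectin of endothelial cells that binds the matrix protein encoded by Mmrn2, had 4.82, 4.13, 4.28 and 3.68 FPKM in sham hearts and 7.64, 4.52 and 7.17 in MI hearts. Mmrn2 itself ranged from 13.6 to 14.4 in sham hearts and from 14.2 to 21.2 in MI hearts. Egfl7, a secreted protein of vessels whose transcript hosts the microRNA miR-126, had 9.48, 9.91, 10.9 and 9.95 FPKM against 16.9, 10.4 and 15.6. In these genes MI replicate 2 lay within the sham range, and the log2 fold changes were 0.49 for Clec14a, 0.38 for Mmrn2 and 0.44 for Egfl7 (adjusted p = 0.109, 0.114 and 0.111). Of the exon bases of Egfl7, 7.37% also belong to a same-strand gene model (Gm20532), whose reads cannot be told apart from those of Egfl7.

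The remaining members were Eng (endoglin, a co-receptor for TGF-beta ligands), Emcn (endomucin), Icam2, Esam and Robo4. Their log2 fold changes ran from 0.19 in Robo4 and Esam to 0.43 in Eng, and Eng alone of the 5 had an unadjusted p under 0.05 (0.0339). Relative to the median gene, Icam2, Esam and Robo4 were at 0.01, -0.02 and -0.02, so they differed from sham about as much as the median gene did.

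Transcription factors of endothelial identity showed few differences. All 10 were tested and 0 passed an unadjusted p of 0.05 in either direction in limma, beside 29.5% of all genes higher and 9.85% lower, and 0 passed after adjustment. Their median change was 0.16 below that of all genes. MI replicates 1 and 3 lay above every sham heart in 4 of the 10 (Erg, Fli1, Sox17 and Sox18), beside 61.9% of all genes. The same 4 were higher at an adjusted p under 0.05 without MI replicate 2, beside 57.0% of all genes.

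The 4 factors furthest from the median gene were below it. Sox18, at 0.242 relative to the median gene, was nearly as far above it as Tcf15, at -0.243, was below. Meox2, a homeobox factor of cardiac capillaries, had 9.65, 9.03, 7.58 and 6.74 FPKM in sham hearts and 8.44, 4.92 and 9.83 in MI hearts. Its lowest value was in MI replicate 2 and its highest in MI replicate 3. The log2 fold change was -0.12 (SE 0.22), and it turned to 0.14 (SE 0.14) without MI replicate 2. Sox7, a SoxF factor, had 7.69, 9.50, 11.1 and 11.1 FPKM against 9.25, 9.64 and 9.17. All 3 MI hearts fell inside the sham range (-0.06, SE 0.14).

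Klf4, a Krüppel-like factor that responds to blood flow, had 15.3, 14.5, 14.9 and 14.6 FPKM in sham hearts and 13.0, 12.1 and 18.5 in MI hearts. MI values lay on both sides of a narrow sham range (log2 fold change -0.05, SE 0.15, and 0.06, SE 0.12, without MI replicate 2). Tcf15, which partners Meox2 in the heart capillary, had 14.0, 21.7, 19.2 and 18.4 FPKM against 14.5, 17.3 and 21.9 (-0.03, SE 0.18). In both genes the groups overlapped with and without MI replicate 2.

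Sox18 was the most abundant SoxF factor, with 24.1 to 35.1 FPKM in sham hearts and 30.0 to 57.8 in MI hearts. Its log2 fold change was 0.45 (SE 0.23, limma adjusted p = 0.168), and 0.66 (adjusted p = 0.0193) without MI replicate 2. Sox17 was the least abundant, with 1.41 to 1.62 and 1.13 to 1.89. Klf2, the flow-induced partner of Klf4, ran from 42.7 to 48.5 in sham hearts and from 36.6 to 69.3 in MI hearts. With all hearts the ETS factors had log2 fold changes of 0.26 (Erg), 0.24 (Fli1) and 0.33 (Ets1), each within 1 SE of the 0.21 of the median gene. Without MI replicate 2 they were 0.384 (SE 0.055), 0.486 (SE 0.091) and 0.291 (SE 0.209), where the median gene was at 0.326. Erg and Fli1 were then more than 1 SE above it. An antisense transcript (Gm37587) covers 16.8% of the exon bases of Sox17. Whether counting used the strand is not given in the sources used here, so such reads cannot be told apart.

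Of the adhesion molecules for leukocytes and platelets, the tested members had larger log2 fold changes than most of the 44. Role groups were not compared by a test, and 0 of the 44 passed an adjusted p of 0.05 with all hearts. All 3 of the tested members (Vcam1, Icam1 and Vwf) were higher at an unadjusted p under 0.05, and their median change was 0.86 above that of all genes. All 3 were higher at an adjusted p under 0.05 without MI replicate 2. The shares of all genes at these thresholds were 29.5% and 57.0%. Sele and Selp were below the FPKM filter and not tested. The summed FPKM of the group was 6.95 to 8.74 in sham hearts, 28.4 and 25.0 in MI replicates 1 and 3, and 8.38 in MI replicate 2.

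Vcam1 (the receptor that VLA-4 on monocytes and lymphocytes binds; chr3:116109949-116129688, minus strand) had 1.28, 1.48, 1.69 and 1.60 FPKM in sham hearts and 8.93, 1.64 and 7.59 in MI hearts. MI replicate 2 lay inside the sham range and the other MI hearts were several-fold above it. The MI mean was 4.01 times the sham mean (6.06 ± 3.88, SD, n = 3, against 1.51 ± 0.177, SD, n = 4). The log2 fold change was 1.28 (SE 0.43, adjusted p = 0.108), and 1.88 (SE 0.09, adjusted p = 8.7e-06) without MI replicate 2.

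Icam1 (the ligand of leukocyte beta-2 integrins; chr9:21015985-21028817, plus strand) had 2.61, 2.60, 2.52 and 2.98 FPKM in sham hearts and 11.4, 2.83 and 8.54 in MI hearts. The pattern over hearts was that of Vcam1. Icam1 had a log2 fold change of 1.06 (SE 0.36, adjusted p = 0.108), and of 1.57 (adjusted p = 3.32e-05) without MI replicate 2. Its paralog Icam2, carried by resting endothelium, had 7.47, 7.39, 6.18 and 6.47 FPKM in sham hearts and 8.84, 5.99 and 10.2 in MI hearts. An antisense transcript (Gm47079) covers 11.7% of the exon bases of Icam1.

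Vwf, the clotting protein stored in endothelial granules and in platelets, had 2.33, 2.90, 3.25 and 3.50 FPKM in sham hearts and 6.54, 3.53 and 7.59 in MI hearts. The groups did not overlap, but MI replicate 2 exceeded the highest sham heart by less than the sham hearts differed among themselves. The log2 fold change of Vwf was 0.74 (SE 0.23, adjusted p = 0.108), and 1.02 (adjusted p = 0.000381) without MI replicate 2. Selp, P-selectin of the same granules, was at 0.0729, 0.0980, 0.0487 and 0.0655 FPKM in sham hearts, from 7 to 13 fragments, and at 0.863, 0.0650 and 0.540 in MI hearts. Sele, E-selectin, was at 0.486 to 0.681 in sham hearts and 0.315 to 0.705 in MI hearts, so the selectins differed in pattern at low levels.

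Other cells that can carry these molecules also differed between hearts. Macrophage and monocyte markers summed to 201.1 to 255.2 FPKM in sham hearts, 1337 and 1146 in MI replicates 1 and 3, and 243.1 in MI replicate 2. Of the 10 markers 9 were tested and all 9 were higher at an unadjusted p under 0.05. Among them, Fcgr1 was under 1 FPKM in every sham heart and passed the filter only through the MI hearts. Lymphocyte markers summed to 0.961 to 1.13 in sham hearts, 36.6 and 6.80 in MI replicates 1 and 3, and 0.917 in MI replicate 2, and 0 of the 7 were tested. Platelet markers summed to 9.51 to 11.1 in sham hearts and to 24.2, 10.1 and 11.8 in MI hearts, with 2 of 5 tested and 0 past an unadjusted p of 0.05, and 1 higher at an adjusted p under 0.05 without MI replicate 2. Their part in the results for Vcam1, Icam1, Vwf and Selp was not tested.

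**Figure D3:**
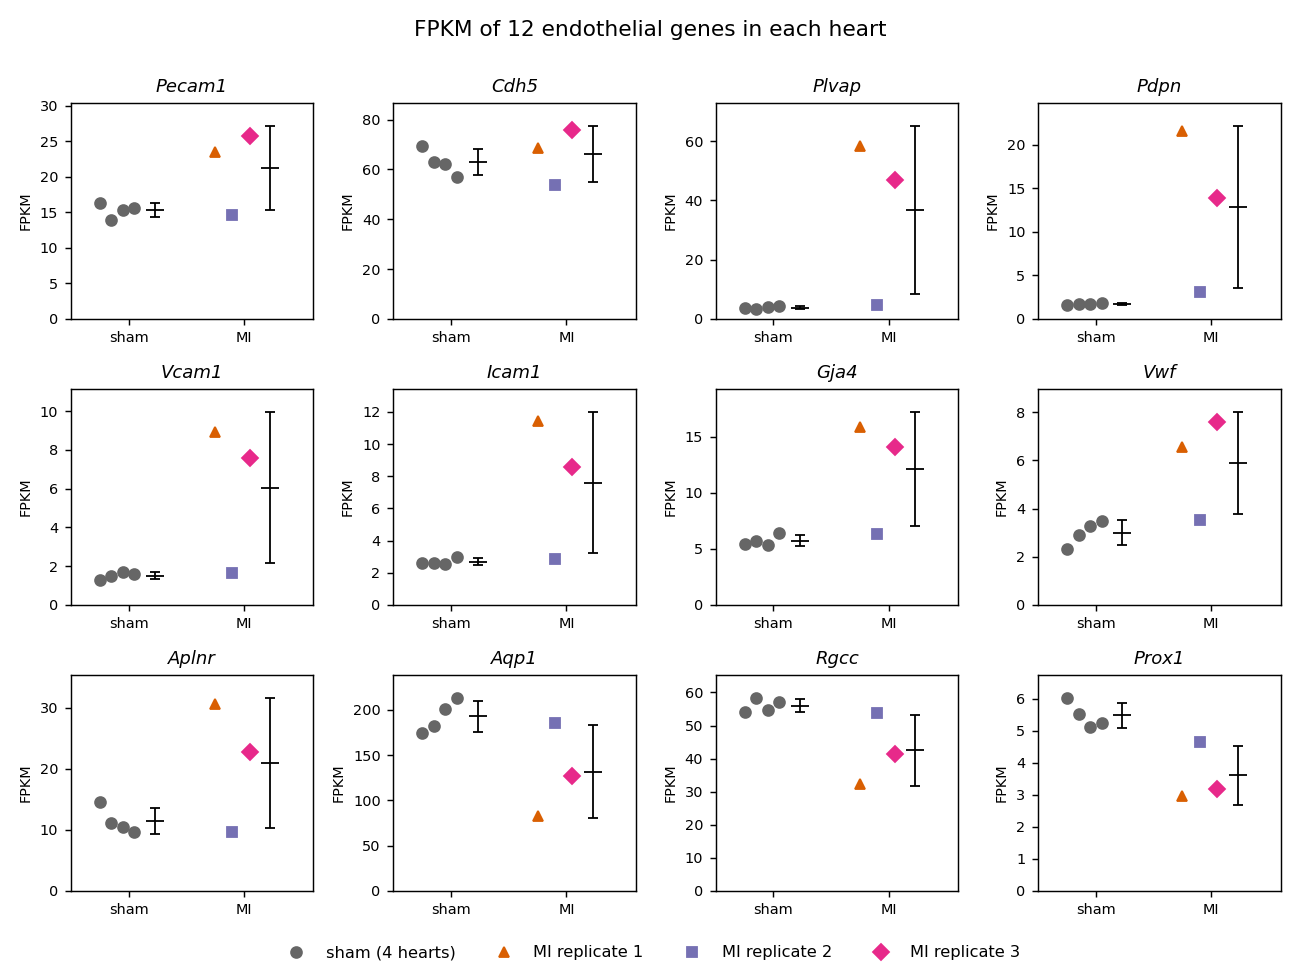
FPKM of 12 endothelial genes in each heart on axes from 0, with bars for the group mean and SD. Plvap, Pdpn, Vcam1 and Icam1 had narrow sham groups and MI replicate 2 near them, while Prox1 and Rgcc had every MI heart below every sham heart.

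Among the 4 genes of vessel tone and barrier signalling, the adrenomedullin receptor genes (Ramp2 and Calcrl) were higher at an unadjusted p under 0.05 and 0 were lower, beside 29.5% and 9.85% of all genes. All but S1pr1, 3 of the 4, were higher at an adjusted p under 0.05 without MI replicate 2, as were 57.0% of all genes. Ramp2, the accessory protein that turns the receptor encoded by Calcrl into an adrenomedullin receptor, had 6.16, 5.74, 7.04 and 5.89 FPKM in sham hearts and 8.77, 9.44 and 11.3 in MI hearts. Calcrl had 3.76, 3.68, 3.70 and 3.30 FPKM against 8.08, 4.01 and 5.92. In both genes every MI heart, MI replicate 2 included, was above every sham heart.

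The log2 fold change was 0.59 for Ramp2 (SE 0.12, unadjusted p = 0.00128, adjusted p = 0.108) and 0.56 for Calcrl (SE 0.19, adjusted p = 0.108). Ramp2 changed little when MI replicate 2 was left out (0.61), since its value there lay between those of the other MI hearts. The same-strand gene Vps25 shares 33.4% of the exon bases of Ramp2, and how such fragments were assigned is not given in the sources used here, so the values of Ramp2 are uncertain.

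Nos3 (endothelial nitric oxide synthase, which relaxes vessels) had 10.8, 12.4, 11.2 and 11.2 FPKM in sham hearts and 13.6, 9.79 and 15.1 in MI hearts. S1pr1, the sphingosine-1-phosphate receptor that tightens the endothelial barrier, had 31.7, 34.7, 32.6 and 32.4 FPKM against 31.0, 30.2 and 35.04. With all 7 hearts neither separated the groups, and the log2 fold changes were 0.14 (SE 0.15) and -0.04 (95% interval -0.26 to 0.19). Without MI replicate 2, both MI values of Nos3 were above every sham heart, with a log2 fold change of 0.31 (adjusted p = 0.00776), and S1pr1 was at 0.00 (adjusted p = 0.957). An antisense transcript (Gm15587) covers 25.2% of the exon bases of Nos3.

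The 8 genes of capillaries, fenestrations and tip cells moved in both directions. Of the 7 tested, 2 were higher (Plvap and Fabp4) and 2 lower (Aqp1 and Rgcc) at an unadjusted p under 0.05, beside 29.5% and 9.85% of all genes. Their median change was 0.15 below that of all genes, so this group had no common direction. Without MI replicate 2, 3 were higher (Plvap, Fabp4 and Aplnr) and 2 lower (Aqp1 and Rgcc) at an adjusted p under 0.05, beside 57.0% and 14.7% of all genes.

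Plvap (PV-1, the protein of the diaphragms that bridge fenestrae and caveolae; chr8:71497765-71511752, minus strand) had the largest change of the 44, at rank 55 of 11431 genes by log2 fold change. Sham hearts had 3.52, 3.43, 3.88 and 4.41 FPKM and MI hearts 58.5, 4.80 and 46.9. MI replicate 2 was just above the highest sham heart and the other MI hearts more than 10 times higher. The means were 3.81 ± 0.442 (SD, n = 4) and 36.7 ± 28.3 (SD, n = 3), a ratio of 9.64. The log2 fold change was 2.41 (95% interval 0.66 to 4.15, adjusted p = 0.108), and 3.48 (SE 0.12, adjusted p = 2.11e-06) without MI replicate 2.

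Aqp1 (the water channel aquaporin-1 of capillary endothelium; chr6:55336432-55348555, plus strand) was the most abundant member in sham hearts, at 174, 183, 201 and 213 FPKM. MI hearts had 82.7, 185 and 127. MI replicate 2 lay inside the sham range and the others below it (log2 fold change -0.62, SE 0.26, adjusted p = 0.122, and -0.90, adjusted p = 0.00253, without it). Rgcc (a cell cycle regulator that marks myocardial capillaries; chr14:79288756-79301645, minus strand) had 54.0, 58.3, 54.7 and 57.1 FPKM in sham hearts and 32.3, 53.7 and 41.5 in MI hearts. All 3 MI hearts were below the lowest sham heart, MI replicate 2 only barely. The log2 fold change of Rgcc was -0.42 (SE 0.17, adjusted p = 0.116), and -0.60 (adjusted p = 0.00146) without MI replicate 2.

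Aplnr, the receptor of apelin, had 14.6, 11.1, 10.4 and 9.62 FPKM in sham hearts and 30.6, 9.62 and 22.7 in MI hearts. The log2 fold change of Aplnr was 0.70 (SE 0.35, adjusted p = 0.166), and 1.15 (adjusted p = 0.000947) without MI replicate 2. Its ligand Apln, a tip cell gene, had 9.66, 8.86, 8.08 and 6.95 FPKM against 10.99, 5.16 and 7.03. So receptor and ligand did not show the same pattern over hearts. Esm1 (endocan, another tip cell gene) was below the FPKM filter and not tested, at 0.617, 0.550, 0.406 and 0.406 FPKM in sham hearts and 4.09, 0.442 and 1.78 in MI hearts, from 21 to 187 fragments in the latter.

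Fabp4, the fatty acid carrier of capillary endothelium and adipocytes, had 76.3, 74.8, 68.3 and 65.6 FPKM in sham hearts and 89.9, 84.8 and 131 in MI hearts, without overlap (log2 fold change 0.49, SE 0.17, adjusted p = 0.108). Adipocyte markers summed to 0.184 to 0.830 FPKM in sham hearts, 91.8 and 277 in MI replicates 1 and 3, and 0.216 in MI replicate 2, with 0 of 5 tested and Lep at 0 in every sham heart. Fabp4 and the adipocyte sum were both highest in MI replicate 3, and in MI replicate 2 Fabp4 was above every sham heart while the adipocyte sum was inside the sham range. The part of adipocytes in the Fabp4 result was not tested. Car4, carbonic anhydrase of continuous capillaries, ran from 4.72 to 6.06 in sham hearts and from 4.11 to 7.03 in MI hearts (log2 fold change 0.06, SE 0.17).

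The 5 arterial and venous genes were all tested. At an unadjusted p under 0.05, 2 were higher (Gja4 and Gja5) and 0 lower, beside 29.5% and 9.85% of all genes. Among sham hearts Gja5 reached 1 FPKM only in replicate 4, so it passed the filter only with MI replicates 1 and 3. Their median change was 0.13 above that of all genes. MI replicates 1 and 3 lay above every sham heart in all 5, beside 61.9% of all genes. MI replicate 2 lay inside the sham range in all 5, and without it all 5 were higher at an adjusted p under 0.05, as were 57.0% of all genes. No direction separated arterial from venous members.

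Gja4 (connexin 37, a gap junction protein of arterial endothelium; chr4:127311421-127314039, minus strand) had 5.42, 5.66, 5.33 and 6.42 FPKM in sham hearts and 15.9, 6.29 and 14.1 in MI hearts. The MI mean was 2.12 times the sham mean (log2 fold change 0.88, SE 0.28, adjusted p = 0.108, and 1.25, adjusted p = 2.77e-05, without MI replicate 2). Gja5, the other arterial connexin, found in atrial and conduction muscle too, had 0.639, 0.830, 0.857 and 1.04 FPKM against 1.32, 0.944 and 1.78 (0.34, SE 0.14, adjusted p = 0.122).

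Nr2f2 (COUP-TFII, a factor of venous identity) had 1.37, 1.13, 1.27 and 1.48 FPKM in sham hearts and 2.51, 1.14 and 2.88 in MI hearts. Efnb2, the arterial ligand ephrin-B2, had 3.50, 3.13, 2.80 and 2.51 against 4.65, 2.77 and 4.62. The log2 fold changes were 0.41 for Nr2f2 and 0.31 for Efnb2 (adjusted p = 0.157 and 0.188). Without MI replicate 2 they were 0.68 and 0.51 (adjusted p = 0.0004 and 0.00362). Ephb4, the venous receptor of ephrin-B2, ran from 8.35 to 9.18 in sham hearts and from 8.76 to 11.8 in MI hearts.

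The lymphatic and endocardial genes split, with Pdpn and Npr3 higher and Prox1 lower at an adjusted p under 0.05 without MI replicate 2, beside 57.0% and 14.7% of all genes. Pdpn (podoplanin, a surface protein of lymphatic endothelium, activated fibroblasts and mesothelium; chr4:143267431-143299564, minus strand) had 1.64, 1.72, 1.69 and 1.87 FPKM in sham hearts and 21.6, 3.11 and 13.8 in MI hearts. Every MI heart was above every sham heart. The ratio of means was 7.43 (12.8 ± 9.27, SD, n = 3, against 1.73 ± 0.0972, SD, n = 4) and the log2 fold change 2.03 (SE 0.52, adjusted p = 0.108). Without MI replicate 2 it was 2.75 (adjusted p = 1.32e-05).

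Prox1 (the transcription factor that sets lymphatic identity, made by cardiomyocytes as well; chr1:190118035-190170714, minus strand) went the other way. Sham hearts had 6.02, 5.53, 5.13 and 5.26 FPKM and MI hearts 2.97, 4.66 and 3.17, so every MI heart was below every sham heart. The log2 fold change was -0.51 (SE 0.14, unadjusted p = 0.00765, adjusted p = 0.108), or -0.72 relative to the median gene. Without MI replicate 2 it was -0.67 (adjusted p = 0.000195).

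The 5 lymphatic genes of the list of other endothelial genes were read for comparison. Flt4 (the receptor of VEGF-C) ran from 2.83 to 3.74 FPKM in sham hearts and had 6.89, 3.41 and 5.66 in MI hearts. Mmrn1 ran from 0.898 to 1.104 and had 2.53, 1.40 and 1.69, and Ccl21a, which has near-identical copies in the mouse genome, from 18.0 to 22.2 with 74.6, 31.2 and 58.8. Lyve1, which some macrophages carry too, ran from 6.69 to 13.6 with 10.9, 9.90 and 9.39. Reln was below the filter, at 0.230 to 0.309 in sham hearts and 0.410, 0.321 and 0.388 in MI hearts. Flt4, Mmrn1 and Ccl21a were higher at an unadjusted p under 0.05 (0.0236, 0.00913 and 0.00184), so Prox1 did not share their direction.

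Marker sums of other cells that make Pdpn or Prox1 differed as well. Fibroblast markers summed to 162 to 190 FPKM in sham hearts, 2673 and 2110 in MI replicates 1 and 3, and 286 in MI replicate 2, with all 10 higher at an unadjusted p under 0.05. Mesothelium and epicardium markers summed to 3.69 to 8.71 in sham hearts and to 25.8, 18.9 and 37.8 in MI hearts. Of the 6, 4 were tested and all 4 were higher at that threshold. Among these, Upk1b and Krt19 were under 1 FPKM in every sham heart and passed the filter only through the MI hearts. Of the 10 cardiomyocyte markers 6 were lower and 0 higher at that threshold, and 9 were lower at an adjusted p under 0.05 without MI replicate 2. Their part in the results for Pdpn and Prox1 was not tested.

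Npr3, a natriuretic peptide clearance receptor that marks endocardium, had 0.687, 0.859, 1.14 and 1.105 FPKM in sham hearts and 1.29, 1.02 and 2.16 in MI hearts. Its log2 fold change was 0.33 (SE 0.17, adjusted p = 0.169). Among sham hearts Npr3 reached 1 FPKM only in replicates 3 and 4, so it passed the filter only with MI hearts. Flrt2 was below the filter, at 0.626, 0.295, 0.677 and 0.252 FPKM against 4.94, 0.710 and 3.34. Every MI heart was above every sham heart in Flrt2, MI replicate 2 by a small margin.

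**Figure D4:**
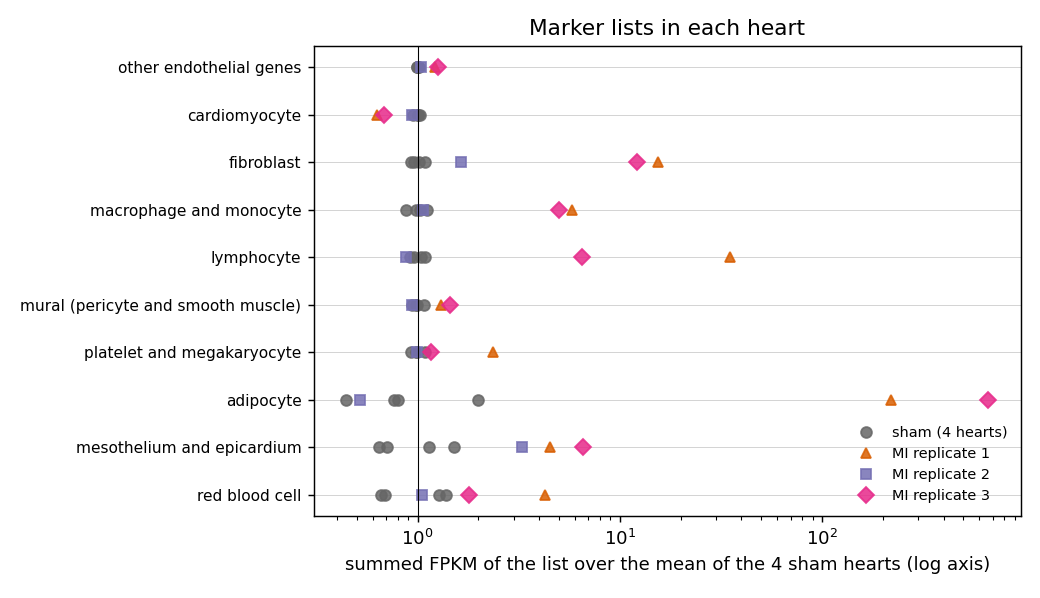
Summed FPKM of each marker list in each heart over the mean of the 4 sham hearts, on a log axis, with grey circles for sham hearts and coloured symbols for MI hearts. The other endothelial genes summed to 694.1 and 716.7 FPKM in MI replicates 1 and 3, above the 561.0 to 573.7 of sham hearts, while fibroblast, macrophage, lymphocyte and adipocyte sums were high in MI replicates 1 and 3 and near the sham hearts in MI replicate 2, except for a fibroblast sum of 286 FPKM there against at most 190 in sham hearts.

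A separate list of 40 other endothelial genes gave the wider setting. Of these, 35 were tested, 9 were higher at an unadjusted p under 0.05 (Flt4, Mmrn1, Ccl21a, Cd34, Myct1, Ecscr, Thbd, Tm4sf1 and Tinagl1) and 0 were lower, beside 29.5% and 9.85% of all genes. Leaving out MI replicate 2 gave 17 higher and 3 lower (Cd36, Timp4 and Palmd) past an adjusted p of 0.05, beside 57.0% and 14.7% of all genes. With all hearts their median change was 0.03 below that of all genes. Their summed FPKM was 561.0 to 573.7 in sham hearts, 694.1 and 716.7 in MI replicates 1 and 3, and 592.0 in MI replicate 2. Pericyte and smooth muscle markers summed to 267.8 to 306.3 in sham hearts and to 369.8, 266.8 and 408.9 in MI hearts, with 8 of 9 tested, 2 higher and 2 lower before adjustment, and with 4 and 2 past an adjusted p of 0.05 without MI replicate 2. Red cell markers summed to 371 to 774 in sham hearts and to 2390, 591 and 1014 in MI hearts, with all 5 tested and 0 past an unadjusted p of 0.05. All 5 were higher at an adjusted p under 0.05 when MI replicate 2 was left out. Neither was tested for its part in the endothelial values.

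Pairs of related genes were compared within each heart, which reduces scaling common to a heart but, with 1 added to each FPKM, does not remove it for low genes such as Gja5 and Sox17. The quantity is the log2(FPKM + 1) of the first gene minus that of the second, tested over 8 pairs with an exact two-sided permutation test over the 35 splits of 7 mice, where the smallest possible p is 0.0571. So 0 of the 8 pairs could pass 0.05. For Icam1 minus Icam2 the differences were -1.23, -1.22, -1.03 and -0.91 in sham hearts and 0.34, -0.87 and -0.23 in MI hearts. The group means differed by 0.84 without overlap (exact p = 0.0571, adjusted over the pairs 0.183).

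Apln minus Aplnr gave -0.55, -0.30, -0.33 and -0.42 in sham hearts and -1.40, -0.79 and -1.56 in MI hearts. Here too the groups did not overlap, MI replicate 2 included, with a difference of -0.85 between means (exact p = 0.0571, adjusted 0.183). The ligand was therefore lower relative to its receptor in all 3 MI hearts.

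In 3 pairs MI replicate 2 fell inside the sham range and the other MI hearts outside it. Plvap minus Car4 was -0.57 to -0.08 in sham hearts and 3.54, -0.47 and 2.67 in MI hearts. Gja5 minus Gja4 was -1.97 to -1.77 in sham hearts and -2.86, -1.91 and -2.44 in MI hearts. Cldn5 minus Cdh5 was -2.50 to -2.05 in sham hearts and -1.69, -2.17 and -1.67 in MI hearts. Their mean differences of 2.35, -0.54 and 0.44 each had an exact permutation p of 0.114, adjusted 0.183.

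The remaining pairs overlapped. Sox17 minus Sox18 differed by -0.38 between groups (exact permutation p = 0.171, adjusted 0.229). Klf4 minus Klf2 differed by -0.08 and Efnb2 minus Ephb4 by 0.06 (exact permutation p = 0.571 and 0.686). The arterial ligand and its venous receptor thus kept a ratio within the spread of the sham hearts, from -1.54 to -1.06, in all 3 MI hearts.

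**Figure D5:**
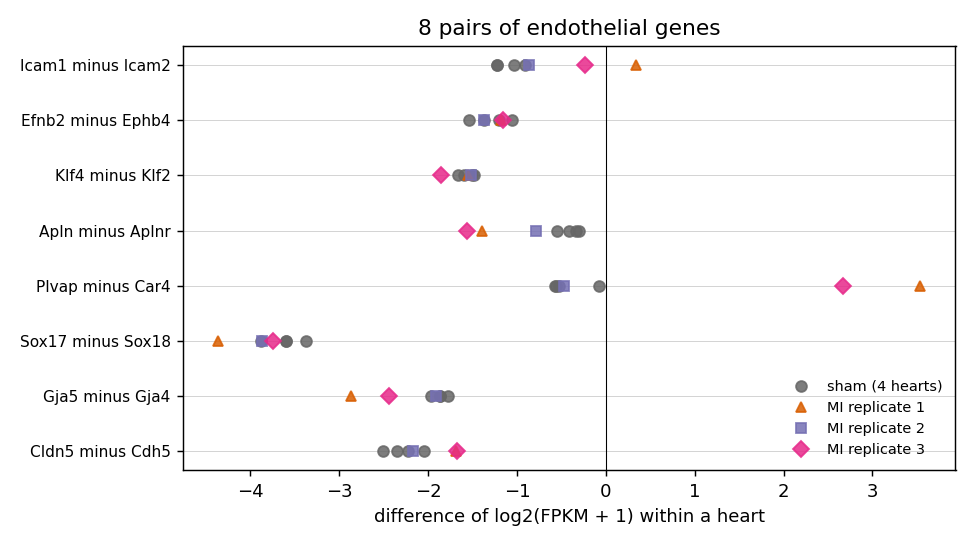
Difference of log2(FPKM + 1) between the 2 genes of each of 8 pairs within a heart, with grey circles for the 4 sham hearts and coloured symbols for the 3 MI hearts. Icam1 minus Icam2 and Apln minus Aplnr had no overlap between groups, and Plvap minus Car4 set MI replicates 1 and 3, at 3.54 and 2.67, far from the rest.

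Promoter sequence was read for 29 of the 48 genes that had an entry in the RefSeq promoter table (GRCm38.p6, 250 bases before to 50 after a start site). Printed here are the 100 bases before the start of 3 genes with higher and 1 with lower MI values, so that what these promoters hold can be seen beside the change, as chr4:143299565-143299664 (Pdpn, minus), chr4:127314040-127314139 (Gja4, minus), chr9:21015840-21015939 (Icam1, plus) and chr14:79301636-79301735 (Rgcc, minus), 5′ to 3′ on the gene's strand. Capitals mark a match to the NF-kB consensus.
Pdpn: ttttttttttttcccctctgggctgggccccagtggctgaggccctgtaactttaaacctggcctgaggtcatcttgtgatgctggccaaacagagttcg
Gja4: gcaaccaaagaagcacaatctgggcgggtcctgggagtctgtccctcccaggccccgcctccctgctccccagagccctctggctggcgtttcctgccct
Icam1: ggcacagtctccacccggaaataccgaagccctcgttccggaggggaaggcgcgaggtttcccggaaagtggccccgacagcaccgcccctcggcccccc
Rgcc: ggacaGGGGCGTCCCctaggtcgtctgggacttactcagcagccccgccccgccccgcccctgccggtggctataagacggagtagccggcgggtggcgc

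Motifs were searched on both strands of the whole window. The NF-kB consensus was in 3 of the 29 (Car4, Meox2 and Rgcc) and in 9.55% of the 27025 genes in the table, counting a gene once if any of its promoters matched. The ETS motif CCGGAAG was in Car4 alone, against 9.93% of all genes, and the KLF motif CACACCC in Clec14a alone, against 9.05%. The SOX motif AACAAT was in Calcrl, Emcn and Erg, against 12.2%. No searched motif overlapped another. A match is a description of these letters, and the windows of Pdpn, Gja4 and Icam1 held none of the 4.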

How the data were processed

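Total RNA from the hearts of 7 mice was sequenced, 4 sham and 3 MI by their labels, with 1 library each. The labels name the mice as separate samples. The authors deposited 1 table of FPKM values per gene and heart, not rescaled here. The unit was taken from the values, since column totals differed and nearly all values were whole multiples of a step set by gene length. The submitters' processing notes list CASAVA 1.8, HISAT2, SAMtools 1.3.1, edgeR and build mm10, without their roles. The annotation, counting program and strand setting are not given in the sources used here.

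Symbols and positions came from GENCODE M21 (GRCm38), where 91.4% of the gene identifiers were found. Fragment numbers came out whole in 30502 of 30504 genes above 0 (99.99%, tolerance 0.05 of a fragment). On simulated data they were exact in 91.0% of all 2877 genes and in 99.4% of the 1516 with 100 or more fragments, so smaller numbers are less certain. The gene length that the values imply was often longer than the M21 exon length, as for Pecam1 (8969 against 6228 bases), so levels are compared between genes only as the authors' FPKM gives them.

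Genes with at least 1 FPKM in at least 3 mice (11431) were tested on log2(FPKM + 1) with limma 3.58.1 (lmFit and eBayes, trend on, R 4.3.3). The contrast was MI against sham, with Benjamini-Hochberg adjustment over all of them, two-sided. A fold change on this scale understates that of low genes. On simulated data with 200 of 11431 genes changed, limma called 188 of them and 9 unchanged ones. How many genes limma would call at the fold changes and spread of these hearts was not tested. Of the 48 endothelial genes 44 passed the filter, Gja5 and Npr3 only with the help of MI hearts, where they were higher. Gene pairs were tested by exact two-sided permutation over samples. Python 3.11.15, NumPy 2.4.6, pandas 2.3.3, SciPy 1.17.1 and matplotlib 3.10.9 did the rest.

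Values per heart go to Pecam1, Cdh5 and the up to 4 tested members of each role group furthest from the median gene, with other members by range or count. Some others, such as Icam2, Apln and the genes below the filter, were added after their values were seen. The members, lists, rule and tests were chosen with earlier results of these data known. Alternatives covered scaling (TPM, quantiles, median log-ratios, mitochondrial genes left out), the filter (none, or mean FPKM), a pseudocount of 0.1, the variance model (limma without trend, sample weights, voom on recovered fragments), a replicate block, and leaving out each mouse.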

Additional observations from a re-analysis of the deposited data

Results flagged for a closer look

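In 4 endothelial genes and 1 gene pair, a single sham heart stood apart from the other 3, by the gap to its nearest neighbour as a share of the group's range (Dixon's 95% limit for 4 samples). Among 56 sets of sham values tested this way, 5 passed, and chance alone gives about 2.8. Eng was at 21.3 FPKM in sham replicate 1 against 19.1 to 19.4 in the others (share 0.877). Ets1 was at 5.13 FPKM in sham replicate 2 against 2.57 to 3.00 (share 0.830), and this heart was above all 3 MI hearts. Sox17 was at 1.62 FPKM in sham replicate 3 against 1.41 to 1.45 (share 0.836). Calcrl was at 3.30 FPKM in sham replicate 4 against 3.68 to 3.76 (share 0.837). The log2 difference Plvap minus Car4 was -0.08 in sham replicate 4 against -0.57 to -0.53 (share 0.918). The 5 came from 4 different sham hearts. Groups of 3 hearts, such as the MI group, were not examined in this way.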

How the results depend on the processing

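Of all 11431 genes, 2 were higher and 1 lower (adjusted p under 0.05). More passed with a pseudocount of 0.1 (5 higher), no filter (20 higher), median log-ratio scaling or mitochondrial genes left out (10 higher and 4 lower each), quantile normalization (10 and 5) and sample weights (7636 and 2316). Fewer passed with voom (1 higher), TPM (0 lower) and a mean filter (0 and 0). Leaving out 1 mouse gave 0 to 6512 higher and 0 to 1683 lower, both highest without MI replicate 2. For the endothelial genes, sample weights gave 38 higher and 4 lower after adjustment, and leaving out 1 mouse 0 to 31 and 0 to 3. Those weights rested nearly on MI replicate 3, with a weight of 437 against at most 0.0906 for the other MI hearts, and their estimation stopped before it converged. The 15 higher and 3 lower at an unadjusted p became 38 higher with sample weights, where 67.1% of all genes were higher. They became 8 and 5 with quantile normalization (16.7% and 21.0% of all genes) and 1 lower with TPM (4.90%). With 1 mouse left out they were 4 to 31 and 1 to 3, beside 8.33% to 58.8% and 4.68% to 15.5% of all genes. The difference in medians of 0.12 became 0.27 without a filter and 0.043 to 0.15 with 1 mouse left out. The cause of these moves was not tested. Selp rests on the fewest fragments of the 48 genes, 7 to 13 per sham heart.

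With a replicate block, 0 genes of the whole table passed an adjusted p of 0.05 in limma in either direction. At an unadjusted p under 0.05, 2332 genes passed with the block, against 4496 without it. Of the endothelial genes, 8 were higher and 1 lower at that threshold, beside 15.5% and 4.92% of all genes. Deviations of same-numbered samples from their group means correlated at 0.074, -0.016 and -0.080. The labels give no pairing. These values cannot show whether the mice were paired, because MI replicate 2 stood apart from the other MI hearts. Relative to the median gene, Icam2 was at -0.0060 and Fli1 at -0.0053 with the block.

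Other changes relative to the median gene also turned sign, in genes between -0.26 (Klf4) and 0.12 (Ets1 and Npr3). Icam2 was at -0.024 with a pseudocount of 0.1, -0.0095 with the mean filter, -0.019 with quantile normalization, -0.017 with median log-ratio scaling, -0.0073 without mitochondrial genes and -0.028 with voom. Fli1 was at -0.0037 with that pseudocount and -0.011 with voom. Without a filter, Esam and Robo4 were at 0.12, Sox17 at 0.011 and Nos3 at 0.078. With sample weights, Esam was at 0.072, Ets1 at -0.037, Klf2 at 0.29, Klf4 at 0.0042 and Nos3 at 0.071. With 1 mouse left out, Icam2 ran from -0.092 to 0.092, Fli1 from -0.033 to 0.16, Esam from -0.077 to 0.034, Robo4 from -0.054 to 0.012, Car4 from -0.39 to 0.12, Ets1 from -0.035 to 0.29 and Npr3 from -0.021 to 0.24. Efnb2 minus Ephb4 ran from -0.025 to 0.14 and Klf4 minus Klf2 from -0.14 to 0.028, and the other 6 pairs kept their direction in every alternative run.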

Other observations

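Several endothelial receptor genes of the wider list were measured well in every heart. Kdr, the main VEGF-A receptor (VEGFR2), had 21.5, 19.5, 18.1 and 19.0 FPKM in sham hearts and 17.7, 16.5 and 16.4 in MI hearts, so every MI heart was below every sham heart, MI replicate 2 included (log2 fold change -0.20, SE 0.09, limma adjusted p = 0.145). Flt1, which encodes VEGFR1, had 9.36, 10.7, 11.8 and 12.1 FPKM against 9.29, 13.0 and 9.84, with overlap. The angiopoietin receptor Tek had 8.64, 7.46, 7.34 and 7.59 FPKM against 9.46, 7.35 and 9.97, and its relative Tie1 had 23.0, 20.3, 21.4 and 19.8 against 24.9, 19.5 and 28.7. Relative to the median gene, Tek was at -0.04 and Tie1 at -0.02. Dll4, the arterial and tip cell ligand of Notch, ran from 7.56 to 8.25 FPKM in sham hearts and had 8.13, 7.52 and 7.87 in MI hearts.

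The capillary fatty acid receptor gene Cd36, which muscle cells use as well, had 122 to 130 FPKM in sham hearts and 78.3, 133 and 78.8 in MI hearts. MI replicate 2 was above every sham heart and the other MI hearts were below them (log2 fold change -0.43, SE 0.20, limma adjusted p = 0.142). These genes were picked from the list after their values were seen.

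Some of the 48 genes lie close together on GRCm38. The gap was 57.6 kb between Sele and Selp, 93.4 kb between Fli1 and Ets1, 113.0 kb between Robo4 and Esam, 266.1 kb between Icam2 and Pecam1 and 394.9 kb between S1pr1 and Vcam1. Relative to the median gene, the log2 fold changes of the neighbours were 0.04 and 0.12 for Fli1 and Ets1, -0.02 for both Robo4 and Esam, 0.01 and 0.20 for Icam2 and Pecam1, and -0.25 and 1.07 for S1pr1 and Vcam1.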
